A study of Mus musculus with 6 samples.

Results

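The nuclear receptor genes described here are 44 genes of the mouse family, taken from a list of gene symbols by family membership and not by a measured value. A gene was measured if a row of the array table was annotated with its symbol alone, and 42 of the 44 were, each by 1 row, among 19938 genes in all. Nr1h2 and Nr2e3 were not analysed here. RNA came from pancreata of E13.5 mouse embryos, with 3 pools of control pancreata, labelled wild type, and 3 pools of pancreata labelled Pdx-Cre beta catenin-exon3 floxed (active), the Pdx1-Cre; Ctnnb1tm1Mmt/+ genotype of the study's methods (mutant pools below). The methods give 3 pancreata for each pool and 1 Affymetrix Mouse Gene 1.0 ST array for each pool. In the mutant embryos Cre is expressed from the Pdx1 promoter, which is active in the epithelium of the pancreatic primordium, and deletes exon 3 of 1 copy of the β-catenin gene, so that the protein escapes degradation. The allele is thus changed in the epithelium, while each pool also holds mesenchyme, vessels and nerves. The sources used here do not say whether control embryos carried Cre or the floxed allele alone.

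Nuclear receptors are transcription factors that bind DNA through zinc fingers and, for many members, are switched by a small lipophilic ligand such as retinoic acid, a steroid, vitamin D, thyroid hormone, a fatty acid or a bile acid. Many of them bind DNA as heterodimers with a retinoid X receptor, and ligand binding replaces corepressors with coactivators. In the developing foregut, retinoic acid is a known patterning signal of the pancreatic field, and the receptors of bile acids, sterols and fatty acids are best known from liver, intestine and adult metabolic tissues.

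Values are the authors' log2 array values, used as deposited, and changes are mutant minus control on the log2 scale, each with a standard error (SE) from limma. A gene was called higher or lower at a Benjamini-Hochberg adjusted p under 0.05 over all 19938 genes. The precision of every value is limited by the number of arrays, 3 in each group. Array medians lay between 6.37 and 6.47, and no detection calls were used, so a low value cannot be told from background. Pdx1, the factor that marks the pancreatic primordium, fell by 4.16 (SE 0.10, adjusted p = 2.68e-08 from limma), and Axin2 and Lef1, targets of β-catenin, rose by 1.47 (SE 0.12) and 0.82 (SE 0.09). Ctnnb1 itself had a change of 0.28 (adjusted p = 0.148), and this row does not test for the missing exon. Of 14 general epithelial markers 12 were lower and none was higher, all 7 neural and glial and all 6 acinar markers measured were lower, and 8 of 9 endocrine markers were lower with 1 higher. Of 11 mesenchymal markers 4 were higher and 3 lower, and of 6 mesothelial markers 3 were lower. In limma 0 of 3 erythroid and 0 of 8 macrophage markers passed (1 and 3 had an unadjusted p under 0.05). Of 11 housekeeping genes 2 were higher and 1 lower, and 7 had an unadjusted p under 0.05. The control and mutant pools did not overlap in 9 of these 11 genes, where this held for 30.9% of all genes. The samples were whole pancreata, so fewer cells of a type and less RNA per cell cannot be told apart.

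Of the 42 measured nuclear receptor genes, 5 rose, 7 fell and the other 30 stayed short of the threshold. Among all genes 14.1% were called, with 6.59% of the table higher and 7.53% lower, so that the 12 called receptors, 28.6% of those measured, were a larger share than in the table as a whole, which is given as a description with no test. The shares lay closer together among genes of higher level. Above the lower quartile of level 9 of 33 receptors were called, against 20.8% of all genes there. Above the median level 5 of 21 were called, against 22.5%. The genes that rose were Nr0b1, Nr1h5, Rarg, Pgr and Nr2f1, and those that fell were Nr0b2, Vdr, Rxrg, Nr6a1, Esr1, Esrrg and Nr3c2. The values of the 3 control and the 3 mutant pools did not overlap in 23 of 42 receptor genes, 54.8%, where this held for 30.9% of all genes. The median change of the 42 was 0.05 and that of all genes 0.03, and the median absolute change was 0.20 against 0.13. Changes were therefore spread to both sides, and the array values of 6 receptors changed at least 1.5-fold (Nr0b1, Nr0b2, Vdr, Nr1h5, Rxrg and Rarg). Among all 19938 genes, 1597 changed by at least this fold. No subfamily had all of its called members on 1 side apart from those with a single call. The largest changes up and down among the 42, those of Nr0b1 and Nr0b2, belonged to the same small subfamily.

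**Figure D1:**
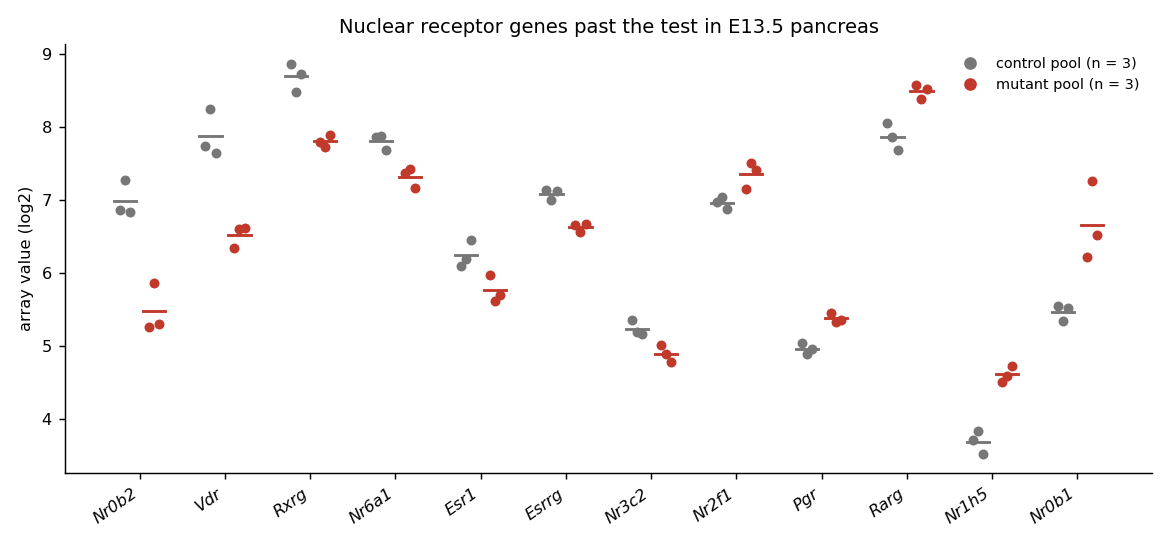
Array values (log2, vertical axis) of the 12 nuclear receptor genes past the test, ordered by change from left to right. Each point is 1 pool and horizontal bars mark the mean of each group (controls grey, mutants red, 3 pools each). The groups do not overlap in any of the 12 genes, with the widest spread among the mutant pools of Nr0b1 (6.22 to 7.26).

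The starts of the 6 receptors that changed at least 1.5-fold on the array scale are shown, with every window found for them, because they are the members with the largest changes. Each sequence runs from 250 bases before to 50 bases after a transcription start, as RefSeq places it on GRCm38.p6. Capitals mark each match, on either strand, to AGGTCA, the hexamer that most nuclear receptors recognise, or to CTTTGA, the core of the site of the TCF/LEF partners of β-catenin; on the strand shown these also read as TGACCT and TCAAAG. Rxrg and Rarg have 2 windows each, and a window without capitals holds no match.
Nr0b1, chrX:86191525-86191824, plus strand: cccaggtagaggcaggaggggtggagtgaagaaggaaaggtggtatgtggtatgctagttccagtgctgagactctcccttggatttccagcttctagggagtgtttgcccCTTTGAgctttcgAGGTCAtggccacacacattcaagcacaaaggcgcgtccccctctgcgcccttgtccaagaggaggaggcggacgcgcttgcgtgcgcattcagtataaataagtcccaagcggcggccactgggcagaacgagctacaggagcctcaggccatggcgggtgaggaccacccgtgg
Nr0b2, chr4:133553126-133553425, plus strand: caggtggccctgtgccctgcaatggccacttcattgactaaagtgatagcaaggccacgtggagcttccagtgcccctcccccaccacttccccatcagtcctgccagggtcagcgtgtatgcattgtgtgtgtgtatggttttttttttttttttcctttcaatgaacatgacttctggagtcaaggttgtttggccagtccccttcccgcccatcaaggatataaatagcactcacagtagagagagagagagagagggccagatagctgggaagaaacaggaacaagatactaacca
Vdr, chr15:97908247-97908546, minus strand: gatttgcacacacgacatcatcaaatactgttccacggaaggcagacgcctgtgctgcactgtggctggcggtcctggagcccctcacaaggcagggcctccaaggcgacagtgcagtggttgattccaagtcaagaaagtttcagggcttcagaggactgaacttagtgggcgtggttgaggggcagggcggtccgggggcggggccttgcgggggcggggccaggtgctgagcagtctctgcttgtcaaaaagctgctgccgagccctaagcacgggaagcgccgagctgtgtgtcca
Nr1h5, chr3:102964084-102964383, minus strand: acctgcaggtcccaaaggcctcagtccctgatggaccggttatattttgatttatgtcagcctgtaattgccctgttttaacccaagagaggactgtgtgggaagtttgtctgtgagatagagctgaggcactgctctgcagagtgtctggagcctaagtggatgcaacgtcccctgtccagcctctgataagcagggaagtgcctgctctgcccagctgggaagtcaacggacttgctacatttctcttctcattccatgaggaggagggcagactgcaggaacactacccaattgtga
Rxrg, chr1:167598112-167598411, plus strand: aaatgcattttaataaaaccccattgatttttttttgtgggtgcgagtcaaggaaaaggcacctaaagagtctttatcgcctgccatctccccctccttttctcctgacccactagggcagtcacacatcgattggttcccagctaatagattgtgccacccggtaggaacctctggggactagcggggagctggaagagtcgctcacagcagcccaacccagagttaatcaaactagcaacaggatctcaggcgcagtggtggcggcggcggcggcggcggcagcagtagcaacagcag
Rxrg, chr1:167618015-167618314, plus strand: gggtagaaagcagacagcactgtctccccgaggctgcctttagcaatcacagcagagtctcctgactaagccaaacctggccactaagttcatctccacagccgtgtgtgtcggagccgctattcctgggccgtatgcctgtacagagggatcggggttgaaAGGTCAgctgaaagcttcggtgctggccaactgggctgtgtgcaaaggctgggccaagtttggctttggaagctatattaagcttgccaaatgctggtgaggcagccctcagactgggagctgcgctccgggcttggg
Rarg, chr15:102246451-102246750, minus strand: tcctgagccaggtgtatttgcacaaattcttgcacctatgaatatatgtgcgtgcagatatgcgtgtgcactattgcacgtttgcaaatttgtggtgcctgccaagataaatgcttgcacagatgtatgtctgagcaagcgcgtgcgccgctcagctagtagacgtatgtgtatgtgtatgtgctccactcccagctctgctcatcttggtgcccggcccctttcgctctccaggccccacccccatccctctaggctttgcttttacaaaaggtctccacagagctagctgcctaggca
Rarg, chr15:102257473-102257772, minus strand: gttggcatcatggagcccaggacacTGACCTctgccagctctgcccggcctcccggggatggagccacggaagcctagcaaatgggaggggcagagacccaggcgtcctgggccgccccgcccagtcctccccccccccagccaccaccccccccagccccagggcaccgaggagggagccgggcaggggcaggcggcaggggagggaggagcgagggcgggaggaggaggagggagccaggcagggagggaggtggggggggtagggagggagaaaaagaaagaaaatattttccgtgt
The Nr0b1 window held a CTTTGA that begins 139 bases before the start and an AGGTCA that begins 126 bases before it. Of the windows of Rxrg, 1 held an AGGTCA 88 bases before its start, and of those of Rarg, 1 held it on the other strand 225 bases before its start. The other window of each, and the windows of Nr0b2, Vdr and Nr1h5, held neither hexamer. AGGTCA was found in 16.3% of all 32851 windows of this length and in 11 of the 58 windows of measured receptor genes, and CTTTGA in 16.0% of all windows and in 6 of the 58. Among the 20 windows of the 12 called receptors, 4 held AGGTCA and 3 held CTTTGA. Windows were found for 39 of the 42 genes. A match is a description of letters and not a binding site.

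Nr0b1 and Nr0b2 encode the receptors that lack a DNA-binding domain and act mainly by repressing other nuclear receptors, Nr0b1 (DAX1) in the adrenal gland and gonads and Nr0b2 (SHP) downstream of the bile acid receptor in liver. Nr0b1 had values of 5.55, 5.34 and 5.52 in controls and 6.22, 7.26 and 6.52 in mutants. Every mutant pool lay above every control pool, and mutant pool 2 lay furthest above them. The gene rose 2.29-fold, a change of 1.196 ± 0.22 (log2 ± SE, adjusted p = 0.00457 from limma), and without mutant pool 2 its log2 change was 0.90 (adjusted p = 0.00135). Its control values were low and cannot be told from background, so the fold is that of the array values. Further markers of the adrenal gland and gonads, among them the steroidogenic genes Star, Cyp11a1 and Cyp17a1, 7 in all, were measured, and 0 passed the test in limma (1 had an unadjusted p under 0.05), with changes between -0.14 and 0.27, and their summed level was 7.58 to 7.73 (log2) in the control pools and 7.59 to 7.79 in the mutant pools. Nr5a1, the steroidogenic factor of the same organs, had a change of 0.06 (adjusted p = 0.793). Nr0b1 is X-linked, and the pools differed in sex-linked genes. Xist had values of 11.82, 11.41 and 12.20 in controls and 10.21, 10.99 and 10.35 in mutants, and the Y-linked gene Uty lay at 3.69 in control pool 1 and at 7.07 to 7.98 in the other 5 pools. Nr0b1 was lower in the control pools, which had the higher Xist values, and among the mutant pools both genes were highest in pool 2. The part of the pools' sex in the change of Nr0b1 was not tested, and the sex-linked genes were chosen after their values were seen.

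Nr0b2 moved the other way. It had values of 6.87, 7.27 and 6.83 in controls and 5.26, 5.86 and 5.30 in mutants, and a gap of 0.97 separated the lowest control pool from the highest mutant pool. It fell 2.86-fold, a change of -1.52 ± 0.18 (log2 ± SE, adjusted p = 0.000263), and its change ranked 196 from the lowest of 19938 genes. Here the mutant values were the low ones, with the same limit. The change of Nr0b1 exceeded that of Nr0b2 by 2.71 (SE 0.24) when the difference of the genes was taken within each array, and the 6 arrays did not overlap in it. That comparison and 12 like it between related receptors were made with an exact permutation test (two-sided), which cannot go below p = 0.1 with 3 pools against 3 (exact p = 0.1, 0.118 adjusted over the 13 pairs). Among the liver markers, 3 of 8 were lower beside Nr0b2 (Ttr, Fgb and Serpina1c) and none was higher, with a summed level of 12.5 to 12.9 (log2) in the control pools and 10.4 to 10.7 in the mutant pools. Alb and Afp, which define that cell type, did not pass the test (changes of -0.50 and -0.12). Ttr had the highest mean of the 8 liver markers in both groups, 12.2 in controls and 9.73 in mutants, and weighs most in their sum. The acinar markers' summed level fell between the groups as well, from 13.7 to 14.4 in the control pools to 9.73 to 10.1 in the mutant pools. Whether these cell types have a part in the change of Nr0b2 was not tested.

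The retinoid receptors split between Rarg and Rxrg. Rarg, a receptor of retinoic acid that is widespread in embryonic mesenchyme and epithelia, had values of 8.06, 7.87 and 7.68 in controls and 8.57, 8.39 and 8.53 in mutants. The groups did not overlap, and the gene rose 1.54-fold, a change of 0.63 ± 0.11 (log2 ± SE, adjusted p = 0.00428). Rxrg, the retinoid X receptor with the most restricted expression, had values of 8.87, 8.49 and 8.73 in controls and 7.79, 7.73 and 7.90 in mutants. It fell 1.86-fold, a change of -0.89 ± 0.12 (log2 ± SE, adjusted p = 0.000533), with every mutant pool below every control pool. The other 4 receptors of this group, Rara, Rarb, Rxra and Rxrb, had changes between 0.14 and 0.18 and did not pass the test (adjusted p from 0.326 to 0.65). Rarb, itself a well-known target of retinoic acid, had values of 8.74, 9.01 and 9.01 in controls and 9.25, 8.73 and 9.19 in mutants, and the groups overlapped. Within arrays, the change of Rarg exceeded that of Rara by 0.47 (SE 0.08) and that of Rarb by 0.49 (SE 0.22). The change of Rxrg lay below that of Rxra by a difference of -1.07 (SE 0.12) and below that of Rxrb by a difference of -1.05 (SE 0.12), and the arrays did not overlap in any of these 4 differences (exact permutation p = 0.1 for each, the smallest this design allows). The neural and glial markers and 8 of 9 endocrine markers fell beside Rxrg, the summed level of the former from 11.3 to 11.4 in the control pools to 9.87 to 9.97 in the mutant pools and that of the endocrine markers from 13.7 to 13.9 to 11.6 to 11.8. Their part in the change of Rxrg was not tested.

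Of 18 measured genes that carry, make or break down retinoids, 6 rose, 2 fell and 10 missed the threshold, with a median change of 0.15. Rbp4, which carries retinol in blood, fell by 3.08 (SE 0.11, adjusted p = 1.53e-07), and Crabp1, which binds retinoic acid in the cytoplasm, and Stra6, the membrane receptor of the retinol carrier, rose by 1.12 (SE 0.13, adjusted p = 0.000258) and 0.86 (SE 0.16, adjusted p = 0.00517). Aldh1a2, the main enzyme of retinoic acid synthesis in the embryo, and Cyp26a1, a retinoic acid hydroxylase that retinoic acid induces, did not pass the test, and both were named after their values were seen (changes of 0.35, adjusted p = 0.375, and 0.07, adjusted p = 0.812).

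Among the receptors of thyroid hormone and vitamin D, Vdr fell. Vdr, the vitamin D receptor of intestinal and other epithelia, had values of 7.74, 8.25 and 7.64 in controls and 6.35, 6.60 and 6.62 in mutants, and a gap of 1.02 lay between the groups, the widest among the 42 genes. It fell 2.56-fold, a change of -1.36 ± 0.16 (log2 ± SE, adjusted p = 0.000266). The change of Vdr was below that of Nr1i2, the pregnane X receptor to which it is closely related, by a difference of -1.34 (SE 0.27, exact permutation p = 0.1). Thra, the main thyroid hormone receptor of the embryo, had values of 10.75, 10.69 and 10.77 in controls and 10.54, 10.44 and 10.52 in mutants. These groups did not overlap either, but the change of -0.24 (SE 0.09) had an adjusted p of 0.115. Thrb had a change of -0.16 (adjusted p = 0.547). Epithelial markers fell beside Vdr, with a summed level of 14.3 to 14.5 (log2) in the control pools and 13.6 to 13.7 in the mutant pools and a median change of -0.78 over the 14 markers. Their part in the change of Vdr was not tested. Of 9 measured genes that transport, convert or respond to thyroid hormone, 2 were higher and 1 was lower. They were Slc16a10, a transporter (change 0.69, SE 0.15), Crym, which binds the hormone in the cytoplasm (0.52, SE 0.09), and Ttr, the plasma carrier, which is also on the list of liver markers (-2.44, SE 0.13).

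Of the 5 steroid receptors 1 was higher and 2 were lower, all by less than 1.5-fold and at low array values. Esr1, the estrogen receptor α, had values of 6.09, 6.20 and 6.46 in controls and 5.97, 5.62 and 5.70 in mutants, and fell by 0.48 (SE 0.13, adjusted p = 0.0304). Pgr, the progesterone receptor and a known target of Esr1 in the uterus, had values of 5.04, 4.89 and 4.95 in controls and 5.45, 5.33 and 5.35 in mutants. It rose by 0.42 (SE 0.09, adjusted p = 0.0124), opposite in sign to Esr1. Nr3c2, the mineralocorticoid receptor, had values of 5.35, 5.18 and 5.16 in controls and 5.01, 4.88 and 4.78 in mutants, and fell by 0.35 (SE 0.10, adjusted p = 0.0499), only just past the threshold. Pgr and Nr3c2 lay under 5.5 in every pool, where values cannot be told from background. The call of Nr3c2 was lost without any 1 of the 6 pools (adjusted p from 0.0698 to 0.186). That of Esr1 was lost without control pool 2 or 3 or mutant pool 2 or 3 (adjusted p from 0.0572 to 0.106), and that of Pgr without mutant pool 1 (adjusted p = 0.0741). Nr3c1, the glucocorticoid receptor, had higher array values, 8.51, 8.83 and 8.71 in controls and 8.61, 8.60 and 8.59 in mutants, and a change of -0.08 (adjusted p = 0.694). The change of Esr1 was below that of Esr2, the estrogen receptor β, by a difference of -0.64 (SE 0.12, exact permutation p = 0.1), and that of Nr3c2 below that of Nr3c1 by a difference of -0.26 (SE 0.16, exact permutation p = 0.2), where the arrays overlapped. Of 12 measured genes that respond to or convert steroids 3 were higher and 2 were lower. Hsd11b2, which inactivates glucocorticoids and so guards the mineralocorticoid receptor, rose by 1.002 (SE 0.12, adjusted p = 0.00041), Klf9, a transcription factor induced by glucocorticoids, rose by 0.59 (SE 0.10), and Sgk1, a kinase induced by both classes of corticoid, fell by 0.48 (SE 0.11).

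**Figure D2:**
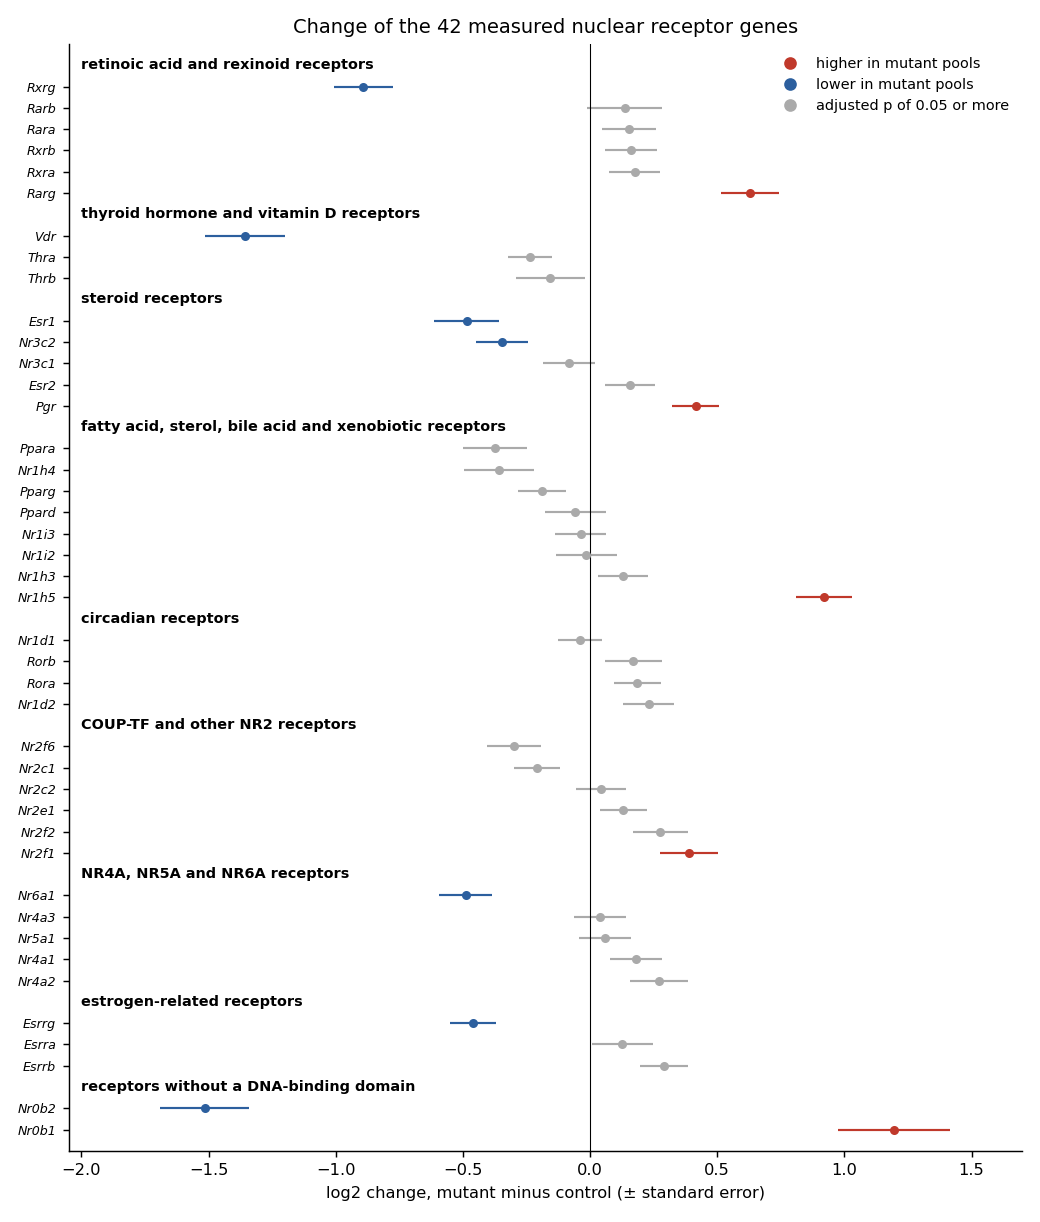
Log2 change, mutant minus control (horizontal axis), of the 42 measured nuclear receptor genes, grouped by subfamily, with the standard error from limma as bars (n = 3 pools per group). Red genes were higher, blue genes lower and grey genes did not pass an adjusted p of 0.05, and the changes ran from -1.52 (Nr0b2) to 1.196 (Nr0b1).

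In the receptors of fatty acids, sterols, bile acids and foreign compounds, 1 of 8 measured genes passed the test. Nr1h5, a farnesoid X receptor β that is a functional gene in the mouse, had values of 3.71, 3.83 and 3.52 in controls and 4.51, 4.59 and 4.72 in mutants. The groups did not overlap and the array values rose by 0.92 (SE 0.11, adjusted p = 0.000307), but the gene had the lowest mean array value of the 42, 4.15. Its values cannot be told from background in either group, so no fold is given for it. Nr1h4, the bile acid receptor, had values of 5.28, 5.47 and 5.33 in controls and 5.01, 5.28 and 4.71 in mutants, a change of -0.36 (SE 0.14, adjusted p = 0.135) that passed the test only without mutant pool 2 among the settings that leave out 1 pool (adjusted p = 0.0255). Ppara, the receptor that drives fatty acid oxidation in liver, had a change of -0.37 (SE 0.13, adjusted p = 0.0839) and passed the test without control pool 3 (adjusted p = 0.0224). Ppard, Pparg, Nr1h3, Nr1i2 and Nr1i3 had changes between -0.19 and 0.13 (adjusted p from 0.263 to 0.964). Nr1i2 and Nr1i3, the xenobiotic receptors of liver and intestine, also had array values under 5.5 in every pool, as did Nr1h4. Such values cannot be told from background here.
Known targets of these receptors went both ways. Of 17 measured sterol and bile acid genes 1 was higher and 3 were lower. Scd1, a fatty acid desaturase, rose by 1.98 (SE 0.12, adjusted p = 3.51e-06), and Abca1, the cholesterol exporter induced by liver X receptors, and Apoe, the lipoprotein gene, fell by 0.92 (SE 0.11) and 0.72 (SE 0.11). Of 15 measured fatty acid genes 1 was higher, Fabp4 (change 0.75, SE 0.12), and 4 were lower, among them Fabp3 (-0.97, SE 0.18) and Cpt1a, the entry enzyme of mitochondrial fatty acid oxidation (-0.79, SE 0.10). Their median changes were -0.05 and -0.18, against 0.03 over all genes.

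Nr1d1 and Nr1d2 (REV-ERB) repress and Rora and Rorb activate the same elements in the circadian loop. None of these 4 passed the test in limma, with changes from -0.04 to 0.23 (adjusted p from 0.188 to 0.845), and Nr1d2 had an unadjusted p under 0.05. Nr1d2 had values of 7.70, 7.60 and 7.60 in controls and 7.85, 7.73 and 8.02 in mutants, without overlap. Of 14 other genes of the loop 3 were higher and 1 was lower. Bhlhe40 and Ciart, repressors of the loop, rose by 0.64 (SE 0.14, adjusted p = 0.0143) and 0.58 (SE 0.16, adjusted p = 0.0417), and Clock fell by 0.51 (SE 0.13, adjusted p = 0.0265).

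In the COUP-TF group and its relatives, Nr2f1 (COUP-TFI) was the gene past the test among 6 measured. Its values were 6.98, 7.05 and 6.88 in controls and 7.15, 7.50 and 7.42 in mutants, and it rose by 0.39 (SE 0.11, adjusted p = 0.0474). That call was lost without any 1 control pool and without mutant pool 2 or 3 (adjusted p from 0.0653 to 0.147). Nr2f2 (COUP-TFII), a factor of mesenchyme, veins and the early pancreatic epithelium, had values of 10.67, 10.34 and 10.58 in controls and 10.80, 10.75 and 10.87 in mutants. Its groups did not overlap, and its change of 0.28 (SE 0.11, adjusted p = 0.131) differed from that of Nr2f1 by 0.11 (SE 0.18, exact permutation p = 0.5), with arrays that overlapped. Nr2f6, a related repressor, had a change of -0.30 (SE 0.11, adjusted p = 0.102) and passed the test without control pool 3 (adjusted p = 0.0433). The testicular receptors Nr2c1 and Nr2c2 had changes of -0.21 (adjusted p = 0.183) and 0.04 (adjusted p = 0.848), and Nr2e1 (TLX), a factor of neural stem cells, had a change of 0.13 (adjusted p = 0.438). Markers of mesenchyme, smooth muscle and endothelium are set beside the COUP-TF genes. Of 11 mesenchymal markers 4 were higher and 3 were lower. Their summed level was 14.38 to 14.46 in the control pools and 14.28 to 14.41 in the mutant pools. Of 8 smooth muscle markers 5 were higher and 1 was lower (summed level 10.9 to 11.1 in the control pools and 11.8 to 12.0 in the mutant pools), and of 9 endothelial markers 1 was higher (12.5 to 12.6 and 12.8 to 12.9), and their part was not tested.

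Nr6a1 (GCNF), which silences pluripotency genes in the early embryo, was the gene that fell among the 5 listed NR4A, NR5A and NR6A receptors. The nuclear receptor genes Nr5a2 and Hnf4a are not on the list of receptor genes used here. The study reports both as downregulated in the mutant pancreata, each by a larger fold than any receptor measured here. Nr6a1 had values of 7.86, 7.88 and 7.69 in controls and 7.38, 7.42 and 7.16 in mutants, and fell by 0.49 (SE 0.11, adjusted p = 0.0112). Without control pool 1 its adjusted p was 0.0502. The orphan receptors Nr4a1, Nr4a2 and Nr4a3, which are induced within minutes by stimuli and by tissue handling, had changes of 0.18, 0.27 and 0.04 (adjusted p of 0.327, 0.165 and 0.871). Of 12 other immediate early genes 1 was higher, Atf3 (change 0.52, SE 0.11), and 1 was lower, Btg2 (-0.83, SE 0.10), with a median change of 0.07.

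The estrogen-related receptors control mitochondrial genes together with coactivators of the PGC-1 type. Esrrg had values of 7.14, 7.01 and 7.12 in controls and 6.66, 6.56 and 6.67 in mutants. It fell 1.38-fold, a change of -0.46 ± 0.09 (log2 ± SE, adjusted p = 0.00656), and its call held without any 1 pool. Esrra and Esrrb had changes of 0.13 (adjusted p = 0.592) and 0.29 (adjusted p = 0.0754), and the change of Esrrg was below theirs by differences of -0.59 (SE 0.14) and -0.75 (SE 0.10, exact permutation p = 0.1 for each). Ppargc1a, the PGC-1α coactivator of these receptors, rose by 0.50 (SE 0.12, adjusted p = 0.0212). It was the gene that was higher among 23 measured coactivators and corepressors, of which 3 were lower. Lcor, a ligand-dependent corepressor, fell by 1.15 (SE 0.09, adjusted p = 2.11e-05), and Ncoa1 (SRC-1), a coactivator of many steroid receptors, by 0.67 (SE 0.10, adjusted p = 0.0014). The median change of the 23 was -0.03.

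**Figure D3:**
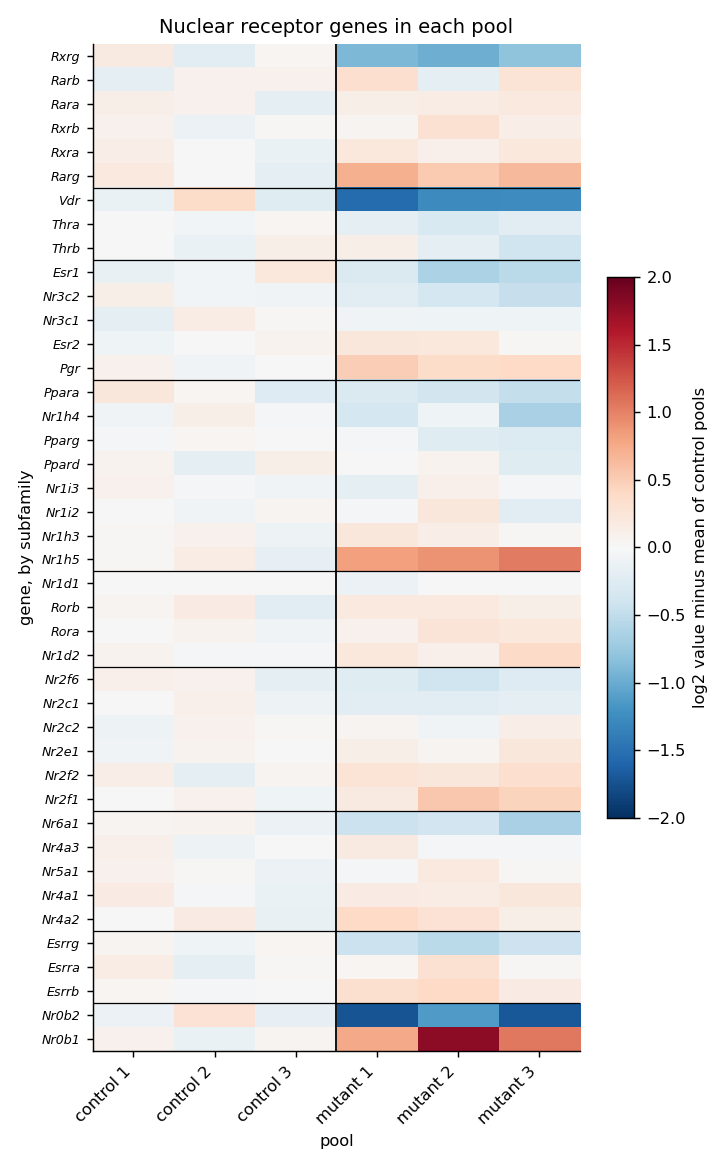
Array value of each pool minus the mean of the control pools (log2, colour) for the 42 nuclear receptor genes (rows, in subfamilies separated by lines) in 3 control and 3 mutant pools (columns). Vdr and Nr0b2 are the darkest blue rows in the mutant pools, Nr0b1, Nr1h5 and Rarg the darkest red ones, and most other rows stay near 0.

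Over the 8 lists of companion genes together, 18 of 119 measured genes were higher and 17 were lower, or 15.1% and 14.3%, beside the shares of all genes given above. The share of called genes was 44.4% in retinoid handling and 16.7% among the immediate early genes, and these lists are described by their counts, with no test of the lists.

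**Figure D4:**
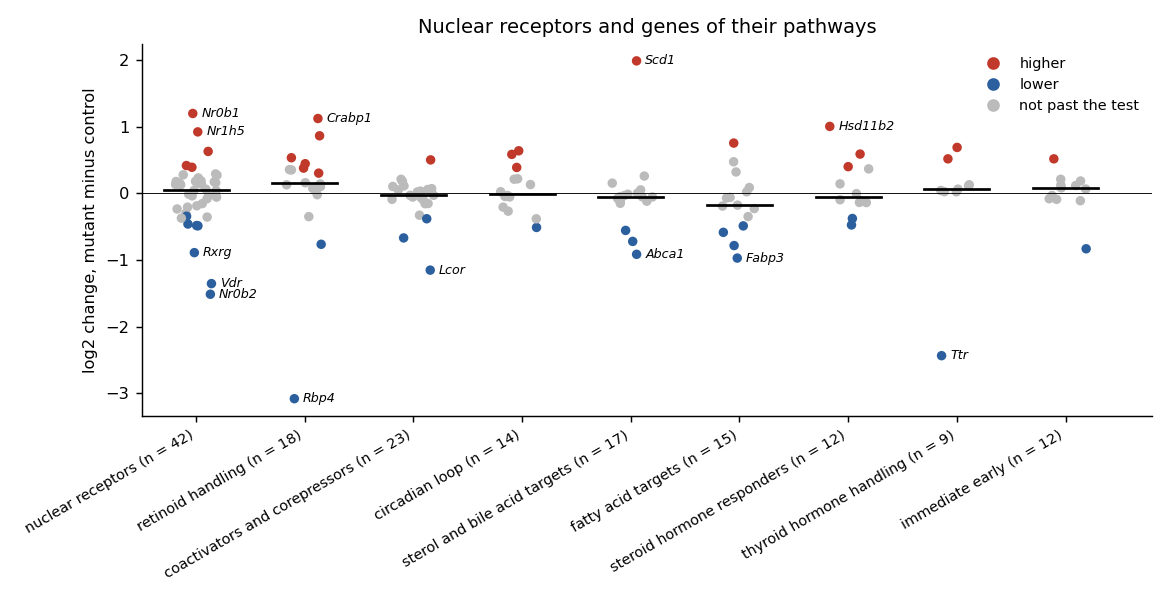
Log2 change, mutant minus control (vertical axis), of the 42 nuclear receptor genes and of the genes of 8 lists of their pathways (columns), with 1 point per gene, coloured by its call, and a bar at the median of each list. Medians lie near 0, and Rbp4 (-3.08), Ttr (-2.44) and Scd1 (1.98) lie furthest from it.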

How the data were processed

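RNA of 6 pools of E13.5 pancreata was measured on Affymetrix arrays. The authors deposited log2 values, 1 row for each transcript cluster. How they corrected background, summarized probes and normalized arrays is not given in the labels or methods. Of 35556 rows, 21789 had 1 gene symbol in the platform annotation, 1621 several and 12146 none. Rows with 1 symbol were used, and the row with the highest mean represented a gene. Genotypes were compared by lmFit and eBayes of limma 3.58.1, under R 4.3.3 (no covariate, no filter on dim genes). No probe signals were used, so the depth of an array is unknown. On simulated data for this comparison (19938 genes), changes of 0.5, 1 and 2 (log2) led to a call in 37.2%, 86.4% and 99.6% of the genes given them, and a call was made in 0.0385% of the rest. The simulated noise was normal and independent between genes, and a smaller share of genes was changed than was called in the real arrays. These rates therefore need not hold for the real arrays. Replicates are labelled as biological.

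The receptor genes and the companion and marker lists were chosen with earlier results of these data known. All receptor genes may be named. At most 3 genes of a companion list are named, those with the largest change past the test; Aldh1a2, Cyp26a1, Xist and Uty were added after their values were seen. Marker lists are given by their counts, and their named members were picked for what they define. The alternatives were the replicate block, each pool left out, other scalings, filters on dim genes, all rows, other priors, array weights and other thresholds. Promoter windows are RefSeq's. Python 3.11.15 with scipy 1.17.1 and matplotlib 3.10.9 was used for the exact tests and figures.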

Additional observations from a re-analysis of the deposited data

How the results depend on the processing

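Direction and call of Nr0b1, Nr0b2, Vdr, Rxrg, Rarg, Nr1h5 and Esrrg held under every alternative in which the gene was tested (a 1.5-fold minimum, which Esrrg misses, was applied to counts alone), with the highest adjusted p at 0.0419 for Nr0b1. The filter above the lower quartile of level leaves Nr1h5, Pgr and Nr3c2 untested, and that above the median also Nr0b1, Nr0b2, Esr1 and Esrrg. The deviations of pools of equal replicate number had correlations of 0.01, -0.15 and -0.05, and those of unequal number ranged from -0.19 to 0.19. These few values cannot decide whether equal numbers mark a pairing. With the replicate block, 9 of the 12 receptors passed the test and Esr1 (adjusted p = 0.0747), Nr2f1 (0.0741) and Nr3c2 (0.0582) did not. With every row tested rather than 1 per gene, Esr1, Nr2f1, Nr3c2 and Nr6a1 were lost, which left 4 receptors lower and 4 higher. With array weights 8 were higher and 11 lower, and Esr1 and Nr2f1 were lost. Nr2f1 and Nr3c2 were also lost with arrays centred on housekeeping genes, and Nr3c2 with arrays centred on their medians and with the trended and robust prior. The cause was not tested.

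Higher receptors numbered 3 above the lower quartile of level, 2 above the median level, 3 at an adjusted p under 0.01, 9 at an unadjusted p under 0.05 and 3 with a change of 1.5-fold as well. Lower receptors numbered 3 above the median level, 4 at an adjusted p under 0.01, 12 at an unadjusted p under 0.05 and 3 with the fold. The filters on level left fewer receptors to test, 33 above the lower quartile and 21 above the median. Of all genes tested there, 20.8% and 22.5% were called. Leaving out 1 pool gave 4 higher in every case and 5 to 7 lower.

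Of all genes, 1313 were higher and 1502 lower. Higher genes numbered 751 with all rows, 3025 with array weights, 723 at 0.01, 2695 at an unadjusted p under 0.05 and 624 with the fold. Lower genes numbered 2422 with array weights, 2386 at an unadjusted p under 0.05 and 934 with the fold. They ranged from 843 (without mutant pool 1) to 1328 higher and from 1132 to 1413 lower when 1 pool was left out. Companion genes ranged from 10 to 16 higher (10 without control pool 1, 11 without mutant pool 3, against 18) and 12 to 17 lower, and were 10 higher above the median level, 8 higher with all rows, 8 higher at 0.01, 8 higher with the fold and 11 lower with the fold. Of all genes called 46.6% were higher, and 54.8% with arrays centred on their medians and 55.5% with array weights.

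The sign of a change turned only in receptors that did not pass the test and lay near 0. It was 0.00034 for Nr1d1 with quantile normalization, 0.023 for Nr1i2 with arrays centred on their medians, and -0.049 for Nr5a1 and 0.054 for Thrb with array weights. Leaving out 1 pool gave ranges that crossed 0 for Nr1i2 (-0.14 to 0.092), Nr1i3 (-0.11 to 0.031), Nr2c2 (-0.0083 to 0.099), Nr4a3 (-0.031 to 0.093), Nr5a1 (-0.0072 to 0.11) and Ppard (-0.15 to 0.033).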
